A study of Mus musculus with 14 samples.

Results

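The mitochondrial genome of the mouse is a small circle that encodes 37 genes in the reference annotation, 13 for proteins (mRNA), 2 for ribosomal RNA (rRNA) and 22 for transfer RNA (tRNA). All genes whose symbol starts with mt- were taken from the deposited table, which gave 20 of its 21152 genes: 13 of 13 mRNAs, 2 of 2 rRNAs and 5 of 22 tRNAs. The other 17 tRNA genes were not analysed here. Of the 20, 16 had a mean more than 1 log2 unit above the lowest value in the table and were tested (13 mRNAs, both rRNAs and the tRNA mt-Tg).

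The proteins of this genome are core subunits of the respiratory chain: mt-Nd1 to mt-Nd6 and mt-Nd4l belong to complex I (NADH dehydrogenase), mt-Cytb to complex III, mt-Co1 to mt-Co3 to complex IV (cytochrome c oxidase), and mt-Atp6 and mt-Atp8 to complex V (ATP synthase). Both strands are copied as long polycistronic precursors by the RNA polymerase POLRMT with the factors TFAM and TFB2M. The precursors are cut at the tRNAs that punctuate the genome, which frees the mRNAs and rRNAs, and the RNAs then differ in level mainly through processing, stability and polyadenylation. Of the genes in the table, mt-Nd6 and mt-Tp lie on one strand and the other 18 on the opposite one.

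RNA came from tumours of LLC1, a line derived from the Lewis lung carcinoma of the mouse, in animals treated for 16 days. The 4 groups were Vehicle (DMSO, n = 4 libraries), MYCi975, an inhibitor of the transcription factor MYC, at 50 mg/kg (n = 4), TMP195, an inhibitor of class IIa histone deacetylases, at 50 mg/kg (n = 3), and Combo, both agents together (n = 3), and no source used here gives the doses in the combination or the strain and age of the mice. By the extraction protocol the cells had been enriched for tumour, whereas the design text describes a suspension of the whole tumour, and no source used here says whether ribosomal RNA was depleted. The series title points to mitochondrial function, so the comparisons ask whether either agent, or both, changed these RNAs. Whether each library was a separate mouse is not stated, so p-values measure the spread between libraries, which may be technical in part.

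Values are on the log2 scale after a variance-stabilising transformation, with a common lowest value (floor) of 4.05 shared by every library; the depth of the libraries is unknown. Between 880 and 2954 genes per library lay at the floor, and the median of the tested genes ranged from 7.02 to 7.07. Host cells were part of the material: leukocyte markers (6 of 6 in the table and tested, summed level 10.89 to 13.12), fibroblast markers (5 of 5, 11.61 to 12.97) and endothelial markers (3 of 4 tested, 8.30 to 9.18) were measured in every group, beside markers of the tumour cells (6 of 7 tested, 14.41 to 14.88; the epithelial gene Epcam lay below the filter). The level of the tumour cell markers rested mostly on Vim (mean 14.38, then Lgals1 with 11.41), so it gives no share of tumour cells. A lower value in such material can mean fewer cells of a kind or less RNA per cell, which cannot be told apart here.

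Sequences set 3 limits on these measurements and are shown for that reason, all read from the GENCODE mouse transcripts. The first is shared bases between neighbours: mt-Atp8 and mt-Atp6 are read from 1 bicistronic RNA and overlap by 43 bases, in which the capitals mark the start codon of mt-Atp6 and the stop codon of mt-Atp8. The genes mt-Nd4l and mt-Nd4 overlap by 7 bases in the same way.
mt-Atp8 and mt-Atp6 overlap: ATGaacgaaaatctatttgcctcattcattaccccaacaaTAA

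The second is nuclear copies of mitochondrial DNA, pseudogenes that carry stretches of the mitochondrial sequence. Bases 202 to 291 of mt-Co2, with 2 such copies, show the range: Gm28661 is identical over its 681 aligned bases, while Gm13341 differs in this window at the 3 bases in capitals. The first 60 bases of mt-Nd3 hold the 1 base, in capitals, at which the copy Gm28438 differs from it in 345.
mt-Co2: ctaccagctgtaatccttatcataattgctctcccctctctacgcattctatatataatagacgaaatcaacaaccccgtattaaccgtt
Gm28661: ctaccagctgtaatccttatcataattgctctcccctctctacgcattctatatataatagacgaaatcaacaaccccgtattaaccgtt
Gm13341: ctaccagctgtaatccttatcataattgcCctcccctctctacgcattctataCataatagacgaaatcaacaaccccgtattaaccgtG
mt-Nd3: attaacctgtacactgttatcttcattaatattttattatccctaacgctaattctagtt
Gm28438: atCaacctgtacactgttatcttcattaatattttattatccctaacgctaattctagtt

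The third is length. The 5 tRNAs in the table are 67 to 69 bases long; those with the highest means are shown with the anticodon in capitals.
mt-Tg: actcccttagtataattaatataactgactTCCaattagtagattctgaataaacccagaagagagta
mt-Tv: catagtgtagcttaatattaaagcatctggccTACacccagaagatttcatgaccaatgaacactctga
mt-Tw: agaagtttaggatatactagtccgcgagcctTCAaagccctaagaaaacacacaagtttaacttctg

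Mitochondrial RNA made up a large share of the measured RNA in every group, and the large rRNA took most of it. The linear values of the 20 genes summed to between 38.4% (Combo replicate 3) and 69.5% (Vehicle replicate 4) of the summed linear values of all genes. By group the share was 55.0% ± 10.8 in the Vehicle group (SD, n = 4), 57.7% ± 8.15 under MYCi975 (n = 4), 54.4% ± 11.8 under TMP195 (n = 3) and 49.1% ± 11.3 under Combo (n = 3). The group means therefore lay closer together than the libraries within a group. The 13 mRNAs together held 3.85% to 8.17% of the summed linear values, and mt-Rnr2 alone 79.0% to 84.1% of the mitochondrial sum. Values assigned to the nuclear copies were counted with the other genes, so these shares leave out any mitochondrial reads among them. Among the 25 genes with the highest mean, 12 were mitochondrially encoded.

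**Figure D1:**
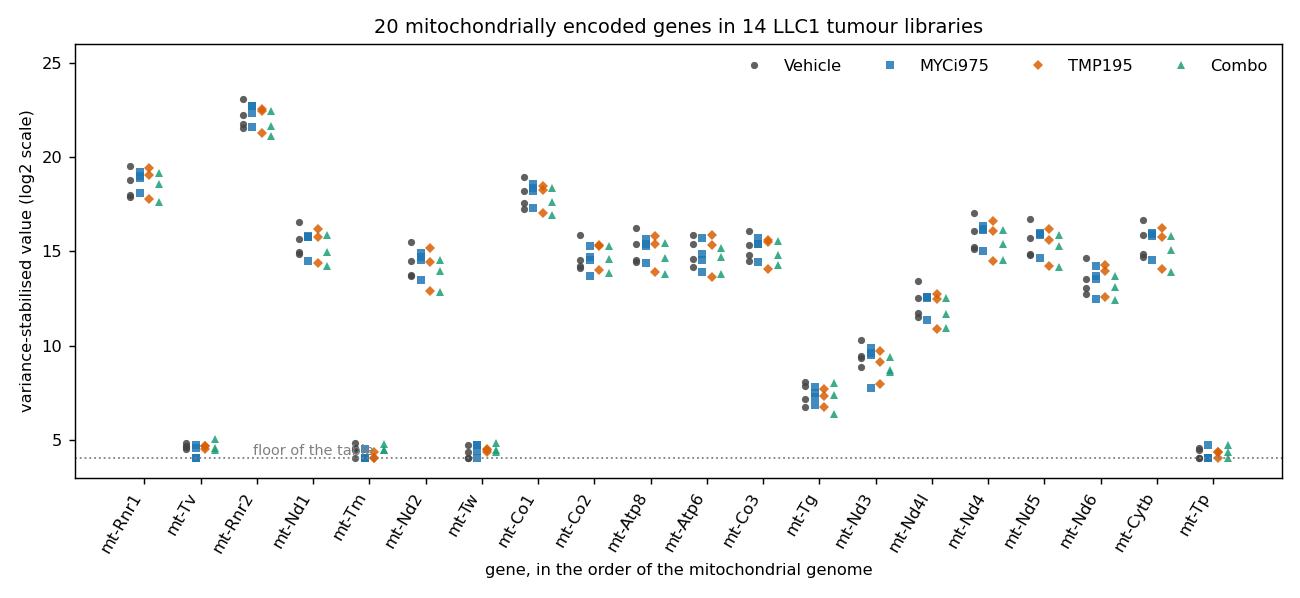
Variance-stabilised value (log2 scale) of each of the 20 genes, 1 point per library, with the 4 groups side by side and genes in genome order; the dotted line is the floor of 4.05. Both rRNAs and mt-Co1 lie at the top, 4 tRNAs lie at or near the floor, and the groups overlap for all 16 tested genes.

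The 16S rRNA mt-Rnr2 (ENSMUSG00000064339.1), the RNA of the large subunit of the mitochondrial ribosome, had the highest mean of all genes in the table, 22.11. Its values were 21.74, 22.25, 21.53 and 23.09 in the Vehicle libraries, 22.35, 22.73, 21.61 and 22.70 under MYCi975, 21.28, 22.44 and 22.58 under TMP195 and 22.43, 21.65 and 21.14 under Combo. Vehicle replicate 4 was highest and Combo replicate 3 lowest, and every treated group overlapped Vehicle. The 12S rRNA mt-Rnr1 (ENSMUSG00000064337.1), the RNA of the small subunit, ranked second with a mean of 18.64. Its values were 17.97, 18.79, 17.90 and 19.55 in the Vehicle libraries, 18.97, 18.92, 18.09 and 19.21 under MYCi975, 17.80, 19.05 and 19.40 under TMP195 and 19.18, 18.56 and 17.61 under Combo. The same libraries stood at the ends, and the groups again overlapped. Both genes belong to the same precursor, with mt-Tv between them, and per length mt-Rnr2 was above mt-Rnr1 in 14 of 14 libraries, by 2.74 ± 0.20 on the log2 scale (SD over 14 libraries).

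Of the mRNAs, mt-Co1 (ENSMUSG00000064351.1), which encodes the catalytic subunit of complex IV, was highest and was the gene with rank 3 in the table, with a mean of 17.94. Its values were 17.59, 18.21, 17.27 and 18.93 in the Vehicle libraries, 18.18, 18.58, 17.30 and 18.37 under MYCi975, 17.02, 18.28 and 18.49 under TMP195 and 18.35, 17.61 and 16.94 under Combo. Within each group it ordered the libraries in the same way as mt-Rnr2. mt-Cytb (ENSMUSG00000064370.1), the only mitochondrially encoded subunit of complex III, was measured at 14.88, 15.85, 14.71 and 16.67 in the Vehicle libraries, 15.90, 15.83, 14.56 and 15.98 under MYCi975, 14.05, 15.74 and 16.25 under TMP195 and 15.80, 15.07 and 13.90 under Combo. It had the widest spread of the 16 tested genes, with an SD of 0.84 over the 14 libraries, and its groups overlapped.

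Complex I has 7 mitochondrially encoded subunits. mt-Nd1 (ENSMUSG00000064341.1), which follows mt-Rnr2 in the genome after the tRNA gene mt-Tl1, read 14.96, 15.67, 14.85 and 16.57 in the Vehicle libraries, 15.76, 15.78, 14.50 and 15.83 under MYCi975, 14.37, 15.74 and 16.17 under TMP195 and 15.88, 14.99 and 14.20 under Combo. The 3 other MYCi975 libraries lay close together, and replicate 3 lay far below them. For mt-Nd5 (ENSMUSG00000064367.1) the values were 14.82, 15.73, 14.87 and 16.69 in the Vehicle libraries, 15.93, 15.97, 14.65 and 15.88 under MYCi975, 14.25, 15.60 and 16.19 under TMP195 and 15.87, 15.27 and 14.16 under Combo. It repeated the pattern of mt-Nd1, replicate 3 of MYCi975 included. The only mRNA of the other strand, mt-Nd6 (ENSMUSG00000064368.1), was measured at 13.06, 13.52, 12.76 and 14.63 in the Vehicle libraries, 13.54, 13.67, 12.47 and 14.21 under MYCi975, 12.59, 13.94 and 14.29 under TMP195 and 13.67, 13.09 and 12.42 under Combo. Its highest library was again Vehicle replicate 4 and its lowest Combo replicate 3. The lowest mRNA was mt-Nd3 (ENSMUSG00000064360.1), with 8.86, 9.36, 9.47 and 10.28 in the Vehicle libraries, 9.48, 9.85, 7.73 and 9.60 under MYCi975, 7.97, 9.14 and 9.73 under TMP195 and 9.37, 8.57 and 8.72 under Combo. Its lowest library was MYCi975 replicate 3, and Vehicle lay within the range of the MYCi975 libraries except for replicate 4. The complex I genes mt-Nd2, mt-Nd4l and mt-Nd4 had means of 14.20, 12.11 and 15.74.

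For complex V, mt-Atp6 (ENSMUSG00000064357.1), which encodes the subunit a of the proton channel, read 14.17, 15.38, 14.58 and 15.89 in the Vehicle libraries, 14.87, 14.53, 13.91 and 15.70 under MYCi975, 13.66, 15.31 and 15.87 under TMP195 and 15.18, 14.71 and 13.80 under Combo. Vehicle replicate 4 was highest and TMP195 replicate 1 lowest. mt-Atp8, which overlaps it, had a mean of 15.02, and the complex IV genes mt-Co2 and mt-Co3 had means of 14.65 and 15.10.

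Among the tRNAs only mt-Tg (ENSMUSG00000064359.1), which carries glycine, lay clearly above the floor, with a mean of 7.34. Its values were 6.75, 7.17, 7.87 and 8.07 in the Vehicle libraries, 7.47, 7.28, 7.81 and 6.86 under MYCi975, 6.76, 7.34 and 7.70 under TMP195 and 8.03, 7.36 and 6.35 under Combo. Here Vehicle replicate 3 and MYCi975 replicate 3 were among the higher libraries, although both were low for the mRNAs. mt-Tv, for valine, was near the floor at 4.51, 4.61, 4.69 and 4.84 in the Vehicle libraries, 4.05, 4.05, 4.74 and 4.59 under MYCi975, 4.53, 4.65 and 4.70 under TMP195 and 5.03, 4.45 and 4.54 under Combo. mt-Tw, for tryptophan, was also near it at 4.05, 4.73, 4.34 and 4.05 in the Vehicle libraries, 4.05, 4.71, 4.74 and 4.43 under MYCi975, 4.33, 4.48 and 4.51 under TMP195 and 4.86, 4.46 and 4.34 under Combo. With mt-Tm and mt-Tp, these tRNAs never exceeded 5.03 and were at the floor in 2 to 7 of 14 libraries, so no difference between groups was detectable for them, and none was tested.

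Levels of different genes were compared only per length (log2 value minus log2 of the transcript length in kilobases), leaving out the tRNAs. The order ran from mt-Rnr2 (21.45) and mt-Rnr1 (18.71) over mt-Atp8 (17.31) and mt-Co1 (17.31) to mt-Co3 (15.45), mt-Nd1 (15.44), mt-Atp6 (15.38), mt-Nd4 (15.27), mt-Co2 (15.20) and mt-Cytb (15.18), and then mt-Nd5 (14.55), mt-Nd6 (14.36), mt-Nd2 (14.15), mt-Nd4l (13.86) and mt-Nd3 (10.68). Neighbours were told apart in all 14 libraries at 6 steps: mt-Rnr2 above mt-Rnr1, mt-Rnr1 above mt-Atp8, mt-Co1 above mt-Co3, mt-Cytb above mt-Nd5, mt-Nd2 above mt-Nd4l and mt-Nd4l above mt-Nd3. mt-Atp8 and mt-Co1 changed order between libraries (mt-Atp8 above in 9 of 14), and so did each neighbouring pair from mt-Co3 to mt-Cytb and from mt-Nd5 to mt-Nd2. mt-Rnr2 lay 4.14 ± 0.09 above mt-Co1 (SD over 14 libraries), the narrowest spread of the 5 differences computed.

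Nuclear copies hold part of what a read of these genes can show. For 7 members most 31-base words also occur in nuclear transcripts: mt-Co2 (100%), mt-Co3 (99.9%), mt-Atp6 (99.5%), mt-Nd4l (98.9%), mt-Nd3 (98.1%), mt-Co1 (63.9%) and mt-Nd4 (62.8%). The share was 0 for mt-Rnr1, mt-Nd1 and the 5 tRNAs in the table, and 2.71% for mt-Rnr2. Full-length copies (over 99% identical and covering over 90% of the gene) were in the table for 4 members, each from an unprocessed pseudogene. Reads from a gene and such a copy cannot be told apart where the sequence is the same, so the 4 members are uncertain as single genes. So is mt-Nd4l: its full-length copy Gm10222 (294 bases, no mismatch) was not in the table and could not be added. Gm28439, identical to 876 bases of mt-Nd4, was also absent. Per length mt-Nd4l differed from its neighbour mt-Nd4 by -1.41 ± 0.10 (SD over 14 libraries).

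Gm10925, the copy of mt-Atp6 (678 bases, no mismatch), had a mean of 16.45 against 14.83 for mt-Atp6 and was above it in 14 of 14 libraries. Its share of their summed linear values was 63.6% to 85.7%. Gm28438, the copy of mt-Nd3, had a mean of 11.66 against 9.15 and was above mt-Nd3 in 14 of 14 libraries, with 73.3% to 90.5% of the sum. Values assigned to Gm10925 and Gm28438 thus exceeded those of mt-Atp6 and mt-Nd3 throughout. The copies of mt-Co2 and mt-Co3 were above their genes in 0 of 14 libraries.

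Gm28661, the copy of mt-Co2, varied most: it read 12.73, 14.35, 11.91 and 13.26 in the Vehicle libraries, 14.15, 14.52, 12.83 and 13.60 under MYCi975, 9.92, 11.997 and 14.43 under TMP195 and 13.06, 12.66 and 6.57 under Combo. It reached its lowest value in Combo replicate 3, where mt-Co2 itself was 13.83, and it ranged over 7.94 log2 units while mt-Co2 ranged from 13.67 to 15.86. Gm28437, the copy of mt-Co3, lay between 7.55 (Combo replicate 3) and 13.59 (Combo replicate 1), and held 0.86% to 20.4% of the sum. The more divergent copies stayed low: Gm13340, which differs from mt-Co1 at 37 of 1545 bases, reached 5.68 at most.

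When the linear values of member and copy were added, mt-Atp6 moved to 17.43 per length, beside its bicistronic partner mt-Atp8. The difference of mt-Atp8 from mt-Atp6 per length was 1.93 ± 0.27 with the values as deposited and -0.11 ± 0.17 with the copy added (SD over 14 libraries). With their copies, mt-Co2 and mt-Co3 stood at 15.64 and 15.60 per length, and mt-Nd3 rose from 10.68 to 13.42, still the lowest. Over the 14 libraries the correlation with the mean of the 13 mRNAs was 0.93 for mt-Co2 alone and 0.99 for its sum, and 0.86 for mt-Nd3 alone and 0.95 for its sum. For mt-Atp6 it was 0.94 alone and 0.96 for the sum, and for mt-Co3 it was lower for the sum, 0.979 against 0.989. These are descriptions over the same libraries, and each gene is part of the mean.

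**Figure D2:**
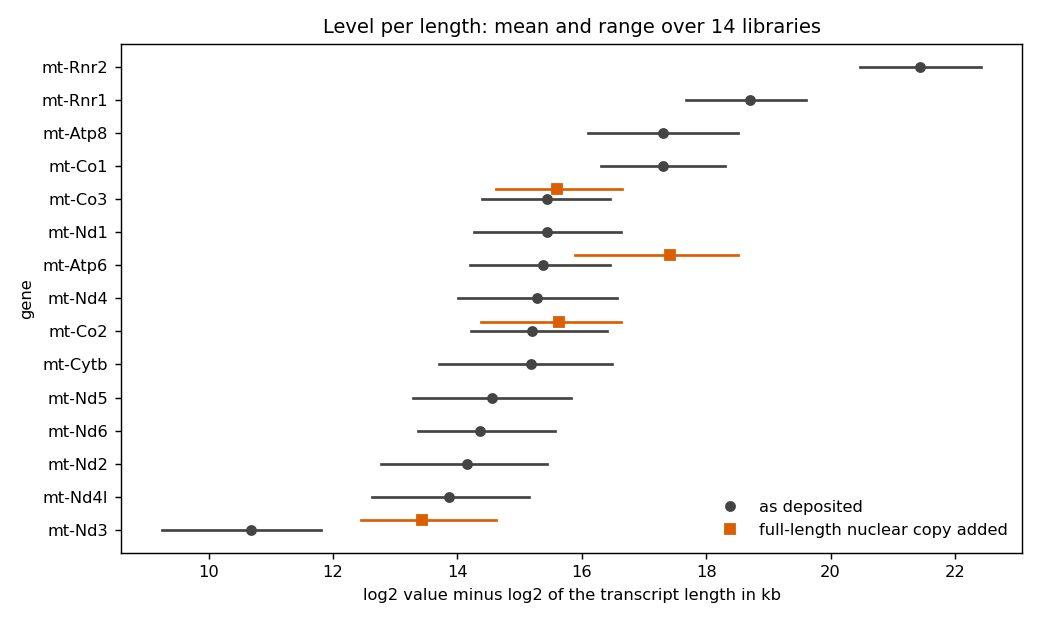
Level per length (log2 value minus log2 of the transcript length in kilobases) of the 15 rRNA and mRNA genes; points are means and bars the range over 14 libraries, and squares add the linear values of the full-length nuclear copy. With its copy, mt-Atp6 moves from 15.38 to 17.43, beside mt-Atp8 at 17.31.

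The genes rose and fell together from library to library. Over the 14 libraries the 105 pairs among mRNAs and rRNAs had Pearson correlations of 0.73 to 0.996 with a median of 0.96, and the 15 pairs with mt-Tg had 0.35 to 0.56; all pairs share libraries and scaling. Vehicle replicate 4 was the highest library for 16 of 16 tested genes, and the lowest was Combo replicate 3 for 10, TMP195 replicate 1 for 4 and MYCi975 replicate 3 for 2. The spread within a group was therefore wide: the median SD within groups was 0.78 for the 16 genes and 0.24 for all 13711 tested genes, and each of the 16 exceeded at least 97.1% of the tested genes. After subtracting the library's mean of the 13 mRNAs, the median SD over libraries of the mRNAs was 0.15.

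Class values, the mean of the centred members of a class in a library, were highest in Vehicle replicate 4 for mRNA, rRNA and mt-Tg, and lowest in TMP195 replicate 1 for mRNA and in Combo replicate 3 for rRNA and mt-Tg. The mRNA value ran from -1.10 in TMP195 replicate 1 to 1.19 in Vehicle replicate 4, and averaged 0.14 ± 0.79 in the Vehicle group, 0.11 ± 0.64 under MYCi975, 0.00 ± 0.97 under TMP195 and -0.33 ± 0.74 under Combo (SD, n = 4, 4, 3 and 3). The rRNA value averaged -0.02 ± 0.73, 0.20 ± 0.50, 0.05 ± 0.77 and -0.28 ± 0.71 in the same groups, and mt-Tg 0.12 ± 0.61, 0.01 ± 0.40, -0.08 ± 0.48 and -0.10 ± 0.85. Every group mean lay within 1 SD of the Vehicle mean in each class. By complex, the Combo difference from Vehicle was -0.52 for complex I, -0.61 for complex III, -0.27 for complex IV and -0.47 for complex V. Without Combo replicate 3 these were -0.15, -0.09, 0.07 and -0.07, and without Combo replicate 1 they were -0.88, -1.04, -0.62 and -0.83.

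**Figure D3:**
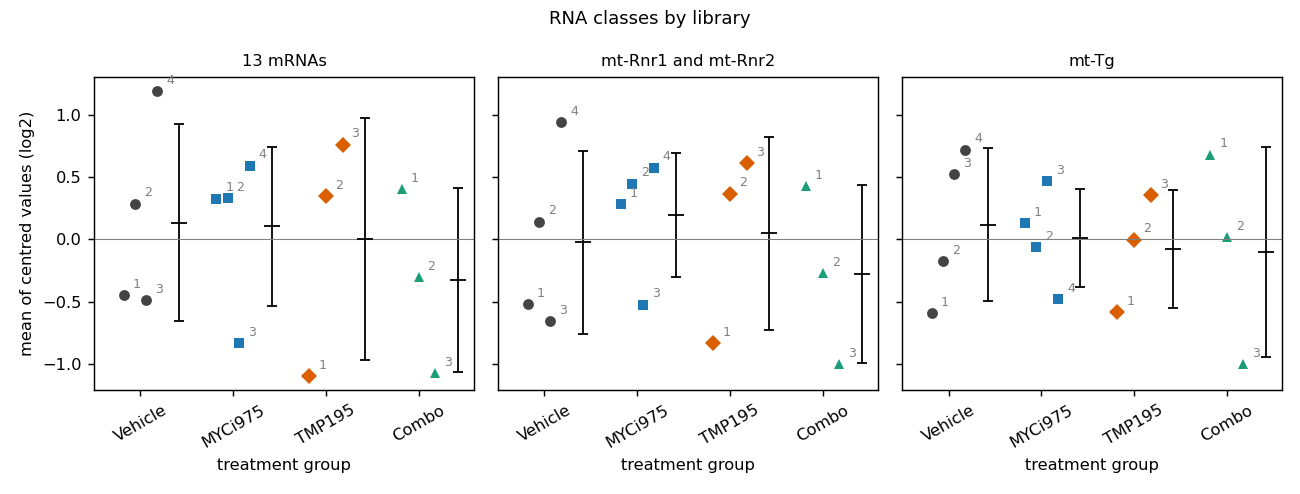
Class value (mean of centred log2 values) of each library for the 13 mRNAs, the 2 rRNAs and mt-Tg; numbers are replicates and bars show the group mean ± SD. The groups overlap in each class, and mt-Tg orders the libraries differently, with MYCi975 replicate 3 above replicate 4.

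With MYCi975 the 16 genes were spread around Vehicle: 9 were higher and 7 lower (13 and 3 with library weights), with a median difference of 0.03 (0.01 over all 13711 tested genes, of which 48.3% were lower). No gene of the 13711 passed an adjusted p of 0.05 (limma, Benjamini-Hochberg; 0% called), and the 16 members had an adjusted p of 0.999. At an unadjusted p below 0.05 there were 457 genes (3.33%) and 0 of 16 members, and 0 members against 1.74% of all genes had groups that did not overlap. The differences ran from -0.33 for mt-Nd3 (95% interval -1.28 to 0.62, unadjusted p = 0.472, limma) to 0.25 for mt-Rnr1 (-0.92 to 1.41). Without Vehicle replicate 4 the median was 0.37, with 15 of 16 higher, and without Vehicle replicate 3 it was -0.20, with 14 of 16 lower.

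With TMP195, 3 genes were higher and 13 lower, with a median of -0.12 (0.00 over all tested genes, 49.2% lower). None of the 13711 genes passed (limma, 0% called), 381 (2.78%) and 0 of 16 members had an unadjusted p below 0.05, and 0 members against 4.27% of all genes had groups that did not overlap. The differences ran from -0.55 for mt-Nd3 (-1.57 to 0.48, unadjusted p = 0.272, adjusted p = 0.9996, limma) to 0.20 for mt-Rnr1 (-1.06 to 1.45). mt-Nd3 is one of the genes with a full-length copy; summed with Gm28438 its difference was -0.05 (-1.08 to 0.99). Without TMP195 replicate 1 the median was 0.45, with 15 of 16 higher, without Vehicle replicate 4 it was 0.24, and without TMP195 replicate 3 it was -0.47.

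With Combo all 16 tested genes were lower than in Vehicle in their means, by a median of -0.44 (0.00 over all tested genes, 50.3% lower), while after quantile normalisation 12 were lower, 1 higher and 3 equal (median -0.20), and with library weights 14 were lower (-0.29). None passed (limma, 0% called of 13711). An unadjusted p below 0.05 was reached by 470 genes (3.43%) and 0 of 16 members, and 0 members against 6.08% of all genes had groups that did not overlap. The differences ran from -0.61 for mt-Nd3 (-1.63 to 0.42, unadjusted p = 0.227, adjusted p = 0.992, limma) and -0.61 for mt-Cytb (-1.86 to 0.65) to -0.10 for mt-Rnr1 (-1.36 to 1.15). Summed with their nuclear copies, mt-Nd3 differed by -0.39 (-1.43 to 0.64) and mt-Co2 by -0.38 (-1.48 to 0.72), against -0.13 for mt-Co2 as deposited. Since the genes rise and fall together, the 16 directions are not 16 separate observations. Without Combo replicate 3 the median was -0.08, with 4 of 16 higher, without Vehicle replicate 4 it was -0.11, and without Combo replicate 1 it was -0.78.

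For mt-Rnr2 the differences from Vehicle were 0.20 with MYCi975, -0.05 with TMP195 and -0.41 with Combo, with a standard error of 1.05 for MYCi975. That error is larger than for the other members because the test draws it towards a trend over intensity, and mt-Rnr2 lies at the upper end; without the trend it was 0.38, and the adjusted p was 0.999 (limma). For mt-Co1 the differences were 0.11 (-0.95 to 1.16), -0.07 (-1.21 to 1.07) and -0.37 (-1.51 to 0.77), and for mt-Nd6 they were -0.02 (-0.99 to 0.95), 0.11 (-0.94 to 1.16) and -0.43 (-1.48 to 0.62). With Combo the intervals of both reach beyond 1 log2 unit below Vehicle, so these libraries leave room for a difference of that size.

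**Figure D4:**
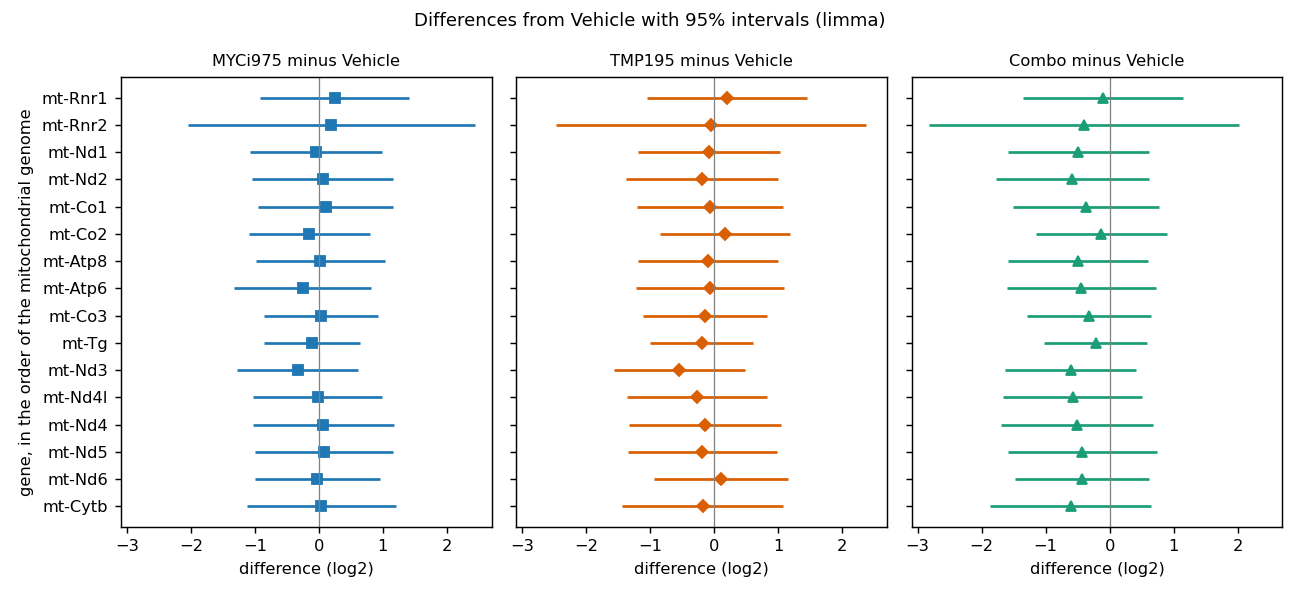
Difference from Vehicle (log2) of the 16 tested genes in genome order for each treatment, with 95% intervals from limma. Each interval includes 0, all 16 Combo differences lie below 0 (12 after quantile normalisation), and the wide interval of mt-Rnr2 comes from the intensity trend.

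Against MYCi975 alone, Combo was lower for 15 of 16 genes, with a median of -0.46 (0.001 over all tested genes, 49.8% lower). Against TMP195 alone it was lower for 16 of 16, with a median of -0.33 (0.006 over all tested genes, 48.9% lower). Both use Combo replicate 3, without which the Combo median against Vehicle was -0.08. Neither comparison called any of the 13711 genes (limma, 0% called), and unadjusted p below 0.05 held for 1120 genes (8.17%) and 603 (4.4%), with 0 of 16 members in both. The interaction, the difference of Combo from TMP195 minus that of MYCi975 from Vehicle, had a median of -0.38 over the 16 members, 0 called (0%), and 656 genes (4.78%) but 0 members at an unadjusted p below 0.05. These comparisons share libraries with those against Vehicle.

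Marker genes of host cells moved beside the Combo difference. All 6 leukocyte markers were lower in Combo than in Vehicle (median -0.52, 0 called, limma), with a summed level (log2 of the summed linear values) of 10.89 to 11.43 in Combo, 11.41 to 12.09 in Vehicle, 11.41 to 13.12 with MYCi975 and 11.65 to 12.58 with TMP195, as were 5 of 5 neutrophil, 4 of 5 macrophage and 3 of 3 tested T and NK cell markers. Fibroblast markers were higher for 4 of 5 (median 0.18, 0 called), endothelial markers lower for 3 of 3 (-0.19), erythroid markers lower for 2 of 3 (-0.01) and tumour cell markers higher for 3 of 6 (0.08), with none called. The 2 tested muscle markers were lower (-1.20), and the other 7, Ckm among them, lay below the filter. Of 4 tested nuclear-retained RNAs, a sign of RNA quality, 3 were lower (median -0.10), with a summed level of 16.18 to 16.69 in Combo and 16.09 to 17.35 in Vehicle. The lists of brown fat and lung epithelium markers were not analysed here. The part of these cells in the mitochondrial values was not tested.

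Classes were also compared within each library, which reduces the shared rise and fall but does not remove it: rRNA minus mRNA was lowest in Vehicle replicate 4, which had the highest mRNA value, and highest in MYCi975 replicate 3, where the mRNA value was -0.83. For mt-Tg minus mRNA the SD over the 14 libraries was 0.64, above the 0.52 of mt-Tg itself. The rRNA value minus the mRNA value was -0.07, -0.14, -0.17 and -0.25 in the Vehicle libraries. It was -0.04, 0.11, 0.31 and -0.02 with MYCi975, 0.26, 0.02 and -0.15 with TMP195, and 0.03, 0.04 and 0.08 with Combo. With the values as deposited, the Vehicle libraries lay below all MYCi975 and all Combo libraries and overlapped TMP195. The gap to MYCi975 was narrow (-0.07 in Vehicle replicate 1, -0.04 in MYCi975 replicate 1). With the full-length nuclear copies added to their mRNAs, MYCi975 replicate 1 lay below Vehicle replicate 3, so MYCi975 overlapped Vehicle. All Combo libraries still lay above Vehicle. The rRNAs differed in the separation as deposited: mt-Rnr1 minus the library's mRNA mean was 3.87 to 4.01 with Vehicle, below the 4.10 to 4.44 with MYCi975, 4.15 to 4.41 with TMP195 and 4.20 to 4.38 with Combo. mt-Rnr2 minus the same mean was 7.41 to 7.70 with Vehicle and overlapped the 7.54 to 7.96, 7.33 to 7.89 and 7.47 to 7.73 of those groups. Of the rRNAs the separation was thus seen for mt-Rnr1 and not for mt-Rnr2. Some mRNAs separated from Vehicle too: mt-Co2 with Combo (0.39 to 0.42 against -0.22 to 0.19). With TMP195 so did mt-Nd3 (-5.70 to -5.42 against -5.41 to -4.52) and mt-Nd6 (-0.96 to -0.80 against -1.25 to -0.97). The share of all genes that do so was not computed. For rRNA minus mRNA the group means differed from Vehicle by 0.25, 0.20 and 0.20, against a pooled SD within groups of 0.13. This is given as a description with no test, since the genes were chosen with results known; after quantile normalisation, which sets the top ranks equal in every library, the MYCi975 difference was -0.01.

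For the strands, mt-Nd6 minus the mean of the 12 other mRNAs was 0.10, -0.20, -0.18 and 0.02 in the Vehicle libraries. It was -0.23, -0.09, -0.12 and 0.21 with MYCi975, 0.29, 0.19 and 0.12 with TMP195, and -0.17, -0.02 and 0.09 with Combo. All 3 TMP195 libraries lay above all 4 Vehicle libraries, by a mean of 0.26, while MYCi975 and Combo overlapped Vehicle. The gap was narrow (0.12 in TMP195 replicate 3, 0.10 in Vehicle replicate 1), and the pooled SD within groups was 0.15. MYCi975 replicate 4 lay within the TMP195 range. Taken against mt-Cytb alone, mt-Nd6 overlapped, with -1.96 to -1.46 under TMP195 and -2.33 to -1.82 with Vehicle. The strand difference is likewise a description with no test. mt-Tg minus the mRNA value ran from -1.07 (MYCi975 replicate 4) to 1.30 (MYCi975 replicate 3), a wider range than any group difference.

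**Figure D5:**
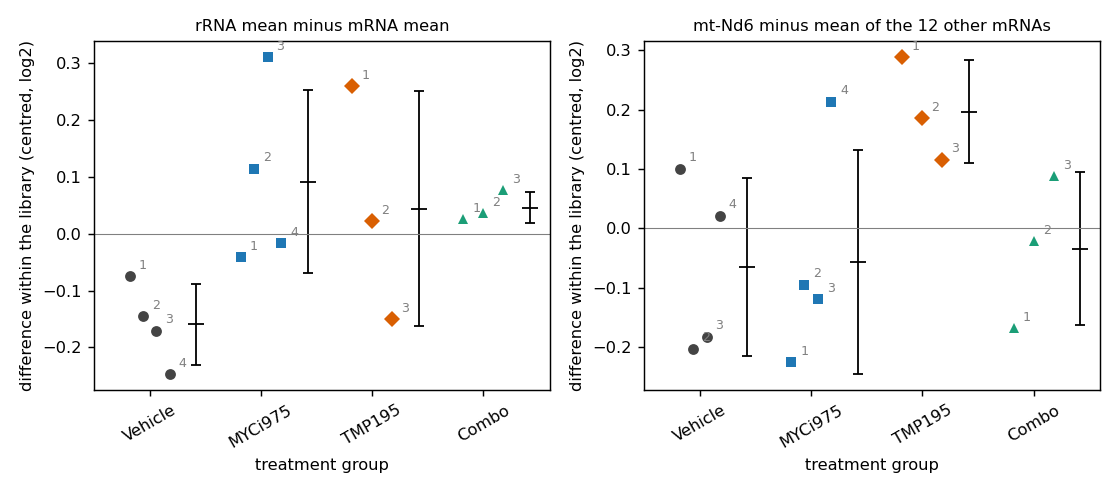
Differences within each library (centred log2 values): left, rRNA mean minus mRNA mean; right, mt-Nd6 minus the mean of the 12 other mRNAs; numbers are replicates and bars the group mean ± SD. On the left all 4 Vehicle libraries lie between -0.25 and -0.07. On the right the 3 TMP195 libraries lie between 0.12 and 0.29, and Vehicle replicate 1 reaches 0.10.

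There were 9 tests on pairs of genes with 1 tRNA gene between them, each an exact two-sided permutation test over libraries. The p doubles the smaller tail, so the smallest possible p was 0.0286 for 4 libraries against 4 and above 0.05 for 4 against 3. mt-Rnr2 minus mt-Rnr1 was 3.599 ± 0.13 in the Vehicle group (SD, n = 4), 3.55 ± 0.19 under MYCi975 (n = 4), 3.35 ± 0.15 under TMP195 (n = 3) and 3.29 ± 0.22 under Combo (n = 3). The exact permutation p was 0.657 for MYCi975 and 0.114 for both TMP195 and Combo, with adjusted p of 0.836, 0.343 and 0.343. mt-Nd1 minus mt-Rnr2 was -6.64 ± 0.11 with Vehicle and -6.88 ± 0.22 with MYCi975, a difference of -0.24 with the smallest p of the family (exact permutation p = 0.0857, adjusted p = 0.343). mt-Nd6 minus mt-Cytb was -2.03 ± 0.22 with Vehicle and -1.74 ± 0.26 with TMP195 (exact permutation p = 0.229, adjusted p = 0.514). None of the 9 had an adjusted p below 0.05, but at these group sizes none could have. Even with every test at its smallest possible p, the adjusted p would stay above 0.05. The tests therefore cannot decide whether these pairs differed between groups, and no conclusion is drawn from them.

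Over the 14 libraries 7 relations were computed, with permutation p-values adjusted over the 7. mt-Rnr2 followed mt-Rnr1 with Pearson's r = 0.95 and Spearman's rho = 0.91, and mt-Co1 with r = 0.99 and rho = 0.98 (permutation p = 1e-05 each, the smallest that 100000 permutations can give; adjusted p = 2.33e-05 for r and 3.5e-05 for rho). mt-Nd6, from the other strand, followed mt-Co1 with r = 0.95 (p = 1e-05, adjusted p = 2.33e-05) and rho = 0.93 (permutation p = 3e-05, adjusted p = 7e-05). With each gene centred on its group mean, the 3 values of r were 0.97, 0.99 and 0.96, and when the 2 libraries most distant from the first gene's median were left out they were 0.92, 0.98 and 0.92. The rRNAs and mRNAs of both strands thus varied together within groups as well as over all libraries.

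mt-Rnr2 did not follow Ptprc, which encodes the leukocyte antigen CD45, beyond the permutation spread (r = 0.32, permutation p = 0.267, adjusted p = 0.312; rho = 0.36, permutation p = 0.208, adjusted p = 0.243; r = 0.19 within groups and 0.24 without the 2 farthest libraries). Nor did mt-Co1 follow Ckm, the creatine kinase of muscle (r = -0.14, permutation p = 0.654, adjusted p = 0.654; rho = -0.06, permutation p = 0.843, adjusted p = 0.843; r = -0.29 within groups and -0.48 without the 2 farthest). mt-Rnr2 did follow Malat1, a long RNA kept in the nucleus (r = 0.70, permutation p = 0.00442, adjusted p = 0.00619; rho = 0.66, permutation p = 0.0121, adjusted p = 0.017; r = 0.65 within groups and 0.69 without the 2 farthest). It also followed the number of genes at the floor in a library (r = 0.76, permutation p = 0.00182, adjusted p = 0.00319; rho = 0.73, permutation p = 0.00387, adjusted p = 0.00677; r = 0.75 within groups and 0.78 without the 2 farthest), a relation added after the data were seen. Libraries with more mitochondrial RNA were thus also those with more undetected genes, and the part of library complexity in the values was not tested. Malat1 was 1 of 5 nuclear-retained RNAs listed. With the mean of the 13 mRNAs its r was 0.70, against 0.59 for Meg3, 0.43 for Neat1, 0.41 for Miat and 0.06 for Kcnq1ot1. With the same mean r was 0.26 for Ptprc, among leukocyte markers from 0.16 (Coro1a) to 0.42 (Tyrobp). Among the tested neutrophil, macrophage and T and NK cell markers it ran from 0.03 for Csf3r to 0.58 for Cd3g. For Ckm, which lay below the filter, it was -0.13. These values were not tested.

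Named nuclear genes were ranked by the likeness of their values to the mean of the 13 mRNAs over the 14 libraries. Predicted genes, clone names and pseudogene names were left out, among them the nuclear copies Gm28438 (r = 0.93) and Gm10925 (0.91). The highest named genes were Fis1 (r = 0.84), a fission protein of the outer mitochondrial membrane, and Rian (0.82), a long noncoding RNA. Next came Tomm22 (0.82), a receptor of the protein import pore, the collagen gene Col1a2 (0.82) and Fkbp2 (0.81), a prolyl isomerase of the endoplasmic reticulum. They are the highest of 11550 named nuclear genes, whose median r was -0.02, and are given as a description.

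Nuclear genes that make and process mitochondrial RNA were taken from lists. In the list for synthesis, 8 of 9 genes were tested and 0 passed in any comparison (limma, 0% called over all genes), with medians of -0.03, -0.10 and -0.10 with MYCi975, TMP195 and Combo. An unadjusted p below 0.05 (limma) was reached by 0, 1 and 1 of the 8 in these comparisons. Over all tested genes the shares were 3.33%, 2.78% and 3.43%. Tfam, which packages mitochondrial DNA and starts transcription, averaged 7.86 ± 0.39 in the Vehicle group (SD, n = 4), 7.77 ± 0.13 under MYCi975 (n = 4), 7.49 ± 0.09 under TMP195 (n = 3) and 7.46 ± 0.11 under Combo (n = 3). Its Combo difference of -0.40 had an unadjusted p of 0.0387 and an adjusted p of 0.992 (limma), and its highest library, at 8.44, was Vehicle replicate 4, the one that was highest for all tested mitochondrial genes. Tfb2m, the partner that opens the promoter, differed from Vehicle by -0.34, -0.52 and -0.35, and Polrmt, the polymerase, by 0.32, 0.17 and 0.07. The TMP195 difference of Tfb2m had an unadjusted p of 0.0325 and an adjusted p of 0.9996 (limma).

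In the list for processing, modification and decay, 28 of 28 genes were tested and 0 passed, with medians of -0.05, -0.06 and -0.03. An unadjusted p below 0.05 (limma) was reached by 0, 1 and 2 of the 28 with MYCi975, TMP195 and Combo. Over all tested genes the shares were 3.33%, 2.78% and 3.43%. With Combo 10 were higher and 18 lower, from -0.32 for Fastkd3 to 0.58 for Tbrg4. Tbrg4, which stabilises a set of mitochondrial mRNAs, read 6.98 ± 0.39 with Vehicle (SD, n = 4) and 7.57 ± 0.11 with Combo (n = 3; unadjusted p = 0.0496, adjusted p = 0.992, limma), and over the libraries it ran against the mRNA mean (r = -0.72). Fastkd2 differed from Vehicle by -0.33 with TMP195 (unadjusted p = 0.0396, adjusted p = 0.9996, limma). Grsf1, which binds mitochondrial RNA in granules, differed by -0.31 with Combo (unadjusted p = 0.0388, adjusted p = 0.992, limma). Lrpprc, which with Slirp keeps mitochondrial mRNAs stable, differed from Vehicle by -0.06, -0.09 and 0.02, and Elac2, which cuts the 3′ ends of the tRNAs, by -0.01, 0.04 and 0.11.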

How the data were processed

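The deposited table holds log2-scale values after a variance-stabilising transformation, which the authors computed for 14 libraries, per the file's name and values; the library kit was a stranded total RNA kit, per the labels' protocols. The submitters' processing notes name Salmon and the human build hg38, whereas the identifiers are mouse Ensembl IDs, so no coordinates are printed. No source used here gives the scaling or filters, and depth could not be recovered. Of 21152 identifiers, 20264 matched a symbol.

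Genes with a mean over 1 log2 unit above the floor (13711) were fitted with limma 3.58.1 (R 4.3.3), 1 mean per group, intensity trend, 10 residual and 5.27 prior degrees of freedom, two-sided, Benjamini-Hochberg at 0.05; the fit was tested on simulated data. Lengths, overlaps and nuclear copies came from GENCODE mouse transcripts on GRCm38. Linear values are 2 to the power of the value minus that of the floor. Values in every library are given for 8 genes of all classes, the 3 highest tRNAs and the member with the smallest p; the copies were added after their values were seen. Members and lists were chosen with earlier results of these data known. Alternatives covered filters, moderation, centring, quantile normalisation, weights, groups compared, the replicate number, each library left out, and copies added to members.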

Additional observations from a re-analysis of the deposited data

Results flagged for a closer look

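In 56 groups of 4 libraries the highest or lowest library was compared with the others, and 7 stood apart by a gap of more than 0.829 of the group's range (Dixon's 95% critical value), all with MYCi975; chance gives about 1 in 20, and the genes vary together. MYCi975 replicate 3 was low for 5 mRNAs. mt-Nd1 was 14.50 there against 15.76 to 15.83 in the 3 other libraries, mt-Nd4l 11.37 against 12.55 to 12.60, mt-Nd4 15.01 against 16.13 to 16.36, mt-Nd5 14.65 against 15.88 to 15.97, and mt-Cytb 14.56 against 15.83 to 15.98. The other flags are tRNAs near the floor: mt-Tm was 4.51 in MYCi975 replicate 2 and mt-Tp 4.72 in replicate 1, with the other libraries of the group at the floor of 4.05.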

How the results depend on the processing

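No member and no other gene was called in any of the 6 comparisons under any of the 24 alternatives (23 for the interaction), limma throughout. Differences of single members are within their error, and their signs depend on the setting. Leaving out 1 library at a time moved the TMP195 difference of mt-Rnr1 from -0.13 to 0.67, mt-Rnr2 from -0.29 to 0.36, mt-Co1 from -0.35 to 0.39, mt-Nd6 from -0.23 to 0.62, mt-Tg from -0.44 to 0.057 and mt-Nd1 minus mt-Rnr2 from -0.16 to 0.089. The same moved the Combo difference of mt-Rnr1 from -0.47 to 0.32, mt-Tg from -0.61 to 0.23, mt-Nd1 minus mt-Rnr2 from -0.17 to 0.029 and mt-Nd6 minus mt-Cytb from -0.018 to 0.31. It moved the MYCi975 difference of mt-Rnr2 from -0.012 to 0.51, mt-Co1 from -0.13 to 0.42, mt-Nd3 from -0.56 to 0.15, mt-Nd6 from -0.27 to 0.36, mt-Tg from -0.34 to 0.095, mt-Rnr2 minus mt-Rnr1 from -0.14 to 0.0061 and mt-Nd6 minus mt-Cytb from -0.17 to 0.028. The libraries behind the ends of the medians over members are named beside the comparisons above. With library weights mt-Rnr1 was 0.067 with Combo, mt-Nd6 0.0197 with MYCi975 and -0.017 with TMP195, and mt-Tg 0.039 with MYCi975. Quantile normalisation gave 0 for mt-Rnr2, mt-Rnr1 and mt-Co1, which hold ranks 1 to 3 in every library and so are set equal, and moved rRNA minus mRNA with MYCi975 to -0.00786 and mt-Nd6 minus the other mRNAs with Combo to -0.14; the cause of the last was not tested. Replicate numbers gave no clear pairing of the libraries. Correlations of deviations were -0.30 to 0.21 for 19 same-numbered pairs (median 0.04, 6 over 0.1). For 54 different-numbered pairs they were -0.25 to 0.34 (median -0.004, 14 over 0.1). The replicate block called nothing and gave mt-Rnr1 0.13 with Combo, mt-Rnr2 0.16 and mt-Co1 0.13 with TMP195; with it the median over members was 0.13 with TMP195 (13 of 16 higher) and -0.20 with Combo (14 lower). Depth is unknown, and near the floor tRNA values carry no comparison.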

Other observations

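Genes that copy and maintain mitochondrial DNA were measured too, and 10 of 10 in the list were tested. None passed in any comparison (limma), with medians of 0.05 with MYCi975, -0.12 with TMP195 and 0.00 with Combo. With TMP195, 7 of 10 were lower, from -0.35 for Ssbp1, the single-stranded DNA-binding protein of the replication fork, to 0.11 for Polg, the DNA polymerase. With Combo the range was from -0.20 for Ssbp1 to 0.30 for Primpol, a primase.

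The named nuclear genes that ran most against the mean of the 13 mRNAs over the 14 libraries were Cdc45, Hmcn2, Prpf4, Atxn7l2 and Parp3. Their r was -0.87 for Cdc45, a part of the replicative helicase, -0.85 for Hmcn2, and -0.83 for Prpf4, a splicing factor, Atxn7l2 and Parp3. They are the lowest of 11550 named nuclear genes and are given as values with no test.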
